A study of Mus musculus with 6 samples.

Results

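The EGR, NR4A and IER immediate-early genes were examined in microglia with and without PGC-1α overexpression. Members were 10 genes, Egr1, Egr2, Egr3, Nr4a1, Nr4a2, Nr4a3, Ier2, Ier3, Ier5 and Zfp36. They were chosen by name, with earlier results of these data known, and matched through the transcript accession of each probe. The members were 10 of 23462 genes with a probe on the array and had 14 of 56605 probes. The later gene lists were chosen with the same knowledge, so shares of members and lists against a background are descriptions. Microglia came from mice labelled male and aged 10 weeks, on a C57BL/6 background, and 3 arrays were hybridized per group. PGC-1αf/f mice carried a loxP-regulated PGC-1α allele linked to eGFP. The mPGC-1α mice carried the same allele together with the tamoxifen-inducible Cre of Cx3cr1-CreERT2 mice, which sits in the Cx3cr1 locus and is active in microglia and other Cx3cr1-expressing cells. PGC-1αf/f littermates that lacked Cre were the controls, and the study's methods describe repeated tamoxifen dosing followed by a waiting interval before experiments. Brains were minced on ice, cleared of myelin on Percoll and selected with magnetic beads for P2RY12, a microglial surface receptor. The labels do not say whether each array held RNA of a single animal or of a pool, so p-values measure the spread between these samples.

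Immediate-early genes are transcribed within minutes of a stimulus without new protein synthesis, from promoters read by factors such as SRF and CREB that are already present in the cell. Their transcripts are short-lived, and they also rise when tissue is taken apart into single cells. EGR proteins are zinc-finger transcription factors that bind a GC-rich site, and NR4A proteins are orphan nuclear receptors that act without a known natural ligand. The IER genes encode small regulators of transcription, survival and stress responses. Zfp36 encodes tristetraprolin, which binds AU-rich elements of mRNAs and promotes their decay, and so limits the output of inflammatory genes in myeloid cells.

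The promoters of members are shown first, because immediate-early genes are induced through factors that read such sequences. Whether these factors acted on the members here was not tested. RefSeq windows of 250 bases upstream of the transcription start (build GRCm38.p6) were at hand for 7 of the 10 genes, not for Egr1, Egr3 and Ier2. The windows below belong to Ier3, Nr4a1 and Zfp36, whose signal was higher on every mPGC-1α array, and to Egr2 and Ier5, whose groups overlapped. They run 5′ to 3′ on the gene's strand. Capitals mark matches to a CArG box (the SRF site), to the CRE half-site TGACG (read by CREB), to the EGR site GCGGGGGCG or to a TATAAA box, on either strand.
Ier3, chr17:35821463-35821712, plus strand: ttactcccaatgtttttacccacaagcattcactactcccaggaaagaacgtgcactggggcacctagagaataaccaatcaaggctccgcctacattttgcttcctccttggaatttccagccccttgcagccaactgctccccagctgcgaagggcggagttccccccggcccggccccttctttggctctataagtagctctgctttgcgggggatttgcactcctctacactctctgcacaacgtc
Nr4a1, chr15:101266596-101266845, plus strand: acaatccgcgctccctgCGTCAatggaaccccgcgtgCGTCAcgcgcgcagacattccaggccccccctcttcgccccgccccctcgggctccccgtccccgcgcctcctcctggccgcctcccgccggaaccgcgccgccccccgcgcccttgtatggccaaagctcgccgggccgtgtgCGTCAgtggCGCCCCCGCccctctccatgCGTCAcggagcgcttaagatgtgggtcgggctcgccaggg
Zfp36, chr7:28379229-28379478, minus strand: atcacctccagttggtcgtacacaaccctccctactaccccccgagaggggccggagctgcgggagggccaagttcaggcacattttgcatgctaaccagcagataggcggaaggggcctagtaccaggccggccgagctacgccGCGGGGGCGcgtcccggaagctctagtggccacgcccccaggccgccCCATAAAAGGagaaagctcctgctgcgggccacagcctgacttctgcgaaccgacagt
Egr2, chr10:67537619-67537868, plus strand: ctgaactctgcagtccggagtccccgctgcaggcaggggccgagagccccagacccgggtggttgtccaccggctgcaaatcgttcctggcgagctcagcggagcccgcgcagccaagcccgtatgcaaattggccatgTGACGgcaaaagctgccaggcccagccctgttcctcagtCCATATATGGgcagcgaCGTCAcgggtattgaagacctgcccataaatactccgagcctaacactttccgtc
Ier5, chr1:155099637-155099886, minus strand: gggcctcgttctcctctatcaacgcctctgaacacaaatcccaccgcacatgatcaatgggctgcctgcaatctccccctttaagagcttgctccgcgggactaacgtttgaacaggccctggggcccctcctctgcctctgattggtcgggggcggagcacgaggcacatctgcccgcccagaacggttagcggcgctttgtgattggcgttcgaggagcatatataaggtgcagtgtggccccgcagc

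The Nr4a1 window held 4 CRE half-sites and 1 EGR site, and the windows of Nr4a2 and Nr4a3, not shown, also held 4 CRE half-sites each. The Zfp36 window held 1 CArG box, at positions -58 to -49 from the start, and 1 EGR site. Egr2 has 5 RefSeq windows, of which 4 held a CArG box, and the one shown also held 2 CRE half-sites. The windows that start at 67537619, 67537620 and 67537680 overlap and held the same CArG box. The Ier3 and Ier5 windows held no match to these letters. Of 32851 windows of the same length, 1.47% held a CArG box, 17.8% a CRE half-site, 2.57% the EGR site and 12.4% TATAAA. These matches are descriptions of sequence, and Ier3 and Ier5, without a match, had the highest and the lowest estimate among the tested members.

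Signal was read as log2 intensity minus the 75th percentile of log2 intensity on the same array, here called the normalized signal. Between 27025 and 30272 of 59305 spots per array were well above background, that percentile lay between 1012 and 2138 intensity units, and 0 spots were saturated. All 16 microglial markers were well above background on every array. PGC-1αf/f replicate 3 stood apart, with a mean correlation to the other arrays of 0.928 against 0.962 to 0.972 for the rest, and its summed signal of 22 leukocyte markers was 41.2 in units of the 75th percentile against 147.2 to 203.9 on the others. All samples were labelled male, but of 4 Y-linked genes 0 were well above background on mPGC-1α replicate 3 and 4 on every other array, and Xist was well above background on that array and on replicate 2 of each group. Arrays of each group filled a row of their own on 1 slide, so row and group cannot be told apart. Columns 1 and 2 held an array of each group. Because of these arrays, the difference of each tested member is also given without PGC-1αf/f replicate 3, without mPGC-1α replicate 3, and within columns. Ppargc1a, the targeted gene, gave differences of 0.80 (SE 0.35, limma adjusted p = 0.306) and 0.59 (SE 0.38, adjusted p = 0.445) on its probes, and the groups overlapped.

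To determine whether the immediate-early genes differed between mPGC-1α and PGC-1αf/f microglia, each probe was fitted with limma across all 25257 tested probes. Tested probes were those measured well above background on every array of 1 group or of both. Of the 10 genes, 8 were tested with 1 probe each, and Egr3 and Nr4a3 were too dim. The 8 estimates all lay above 0, with a median of 0.70 on the log2 scale, against a median of 0.03 over all genes. None passed an adjusted p of 0.05, which 18 of all tested probes did in the direction of higher signal (0.0713%) and 2 in the other (0.00792%, together 0.0792%). With a random block for the slide column, which replicates 1 and 2 of the groups shared, Egr1, Ier2 and Ier3 passed (adjusted p = 0.0324, 0.0373 and 0.0432), as did 140 of 25257 probes. Members past the threshold also numbered 3 with array weights, 2 in the deposited table without normalization and 0 to 1 with an array left out. They numbered 0 with quantile normalization, a median shift or the filter on all 6 arrays. With a block for the replicate number, 0 members and 0 of all probes passed. At an unadjusted p under 0.05, 5 members were higher and 0 lower, of which Zfp36 rested on a single mPGC-1α array, where the background was 7.53% of probes higher and 9.21% lower. With a value on all 6 arrays, 3 of 5 members (Egr1, Ier2 and Ier3) had all mPGC-1α arrays above all PGC-1αf/f arrays, against 12.2% of genes, and 0 had the reverse, against 10.8% (22.9% of genes in either direction). The other 3 tested members, Nr4a1, Zfp36 and Ier5, had spots on mPGC-1α arrays that the scanner software marked as outliers, and these spots were left out. With those spots kept, 5 of 8 members did not overlap and were higher (background 11.8%), and the median was again 0.70. Fewer cells of a type and less RNA per cell cannot be told apart in these bulk samples, for these and all later values.

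**Figure D1:**
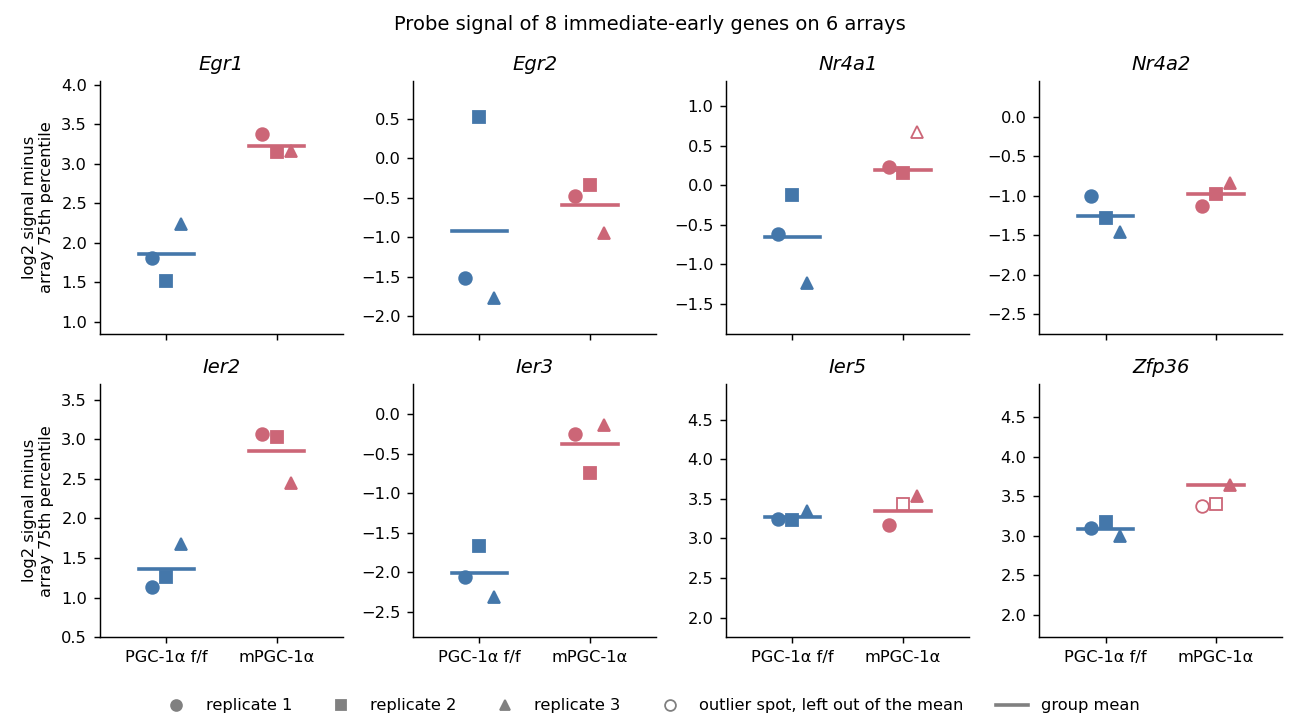
Normalized signal (log2 intensity minus the array's 75th percentile) of the 8 tested members on each of the 6 arrays, with group means as lines and outlier spots, left out of the means, as open symbols. All mPGC-1α arrays lie above all PGC-1αf/f arrays for Egr1, Ier2 and Ier3, and for Nr4a1 and Zfp36 if open symbols are counted, while Egr2, Nr4a2 and Ier5 overlap.

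Among the EGR transcription factors, Egr1 showed the clearest separation. Egr1 (probe A_51_P367866) had normalized signals of 1.81, 1.52 and 2.23 on PGC-1αf/f replicates 1 to 3 and of 3.38, 3.15 and 3.17 on mPGC-1α replicates 1 to 3. Every mPGC-1α array was above every PGC-1αf/f array, and the mPGC-1α arrays lay closer together. The group means were 1.86 ± 0.36 and 3.23 ± 0.13 (SD, n = 3 each), a difference of 1.37 (SE 0.20, 95% interval 0.89 to 1.85) or 2.59-fold (limma adjusted p = 0.0781, rank 86 of 25257). Before any scaling between arrays, its intensity was 3549, 4448 and 10068 in PGC-1αf/f and 13244, 14755 and 13179 in mPGC-1α microglia, so the groups were also apart in raw units. Within slide columns 1 and 2 the difference was 1.56 and 1.63. Without PGC-1αf/f replicate 3 it was 1.56 and passed the threshold (adjusted p = 0.0404), and without mPGC-1α replicate 3 it was 1.41 (adjusted p = 0.233).

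Egr2, a relative of Egr1 known for its part in myelination and in myeloid cells, had the widest spread among PGC-1αf/f arrays of the tested members. Egr2 (A_51_P173043) had normalized signals of -1.52, 0.52 and -1.77 in PGC-1αf/f and of -0.48, -0.34 and -0.94 in mPGC-1α microglia. PGC-1αf/f replicate 2 was the highest of all 6 arrays, and the other PGC-1αf/f arrays were the lowest. The difference was 0.33 (SE 0.58, 95% interval -1.04 to 1.70, adjusted p = 0.789), an interval that holds changes of either sign. It was 1.04 in slide column 1 and -0.86 in column 2. Without PGC-1αf/f replicate 3 it turned to -0.09, without mPGC-1α replicate 3 it was 0.51, and without PGC-1αf/f replicate 2 it was 1.05.

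Egr3, a further zinc-finger member induced with Egr1, was near the limit of detection. Its brightest probe (A_55_P2787986) was well above background on 2 arrays of each group, with intensities of 68.4, 305.6 and 134.0 in PGC-1αf/f and of 156.7, 175.4 and 135.3 in mPGC-1α microglia. A second probe (A_52_P440836) was well above background on PGC-1αf/f replicate 2 alone, at 175.2, and the third (A_51_P437198) on no array. Both of the brighter Egr3 probes were highest on PGC-1αf/f replicate 2, as Egr2 was, and no difference was tested.

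Of the NR4A receptors, Nr4a1 and Nr4a2 were tested. Nr4a1 (Nur77, A_51_P239654) had normalized signals of -0.61, -0.12 and -1.24 in PGC-1αf/f microglia and of 0.24, 0.15 and 0.68 in mPGC-1α microglia. All mPGC-1α arrays were above all PGC-1αf/f arrays, although the gap between PGC-1αf/f replicate 2 and mPGC-1α replicate 2 was 0.27. The mPGC-1α replicate 3 spot was an outlier on its array. Without it the difference was 0.85 (SE 0.33, 95% interval 0.05 to 1.66, n = 3 and 2, limma adjusted p = 0.283), and with it the difference was 1.01 (SE 0.30, adjusted p = 0.198). Within columns 1 and 2 it was 0.85 and 0.27. Without PGC-1αf/f replicate 3 it was 0.56 (adjusted p = 0.366), and without the whole mPGC-1α replicate 3 array 0.85 (adjusted p = 0.374).

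Nr4a2 (Nurr1, A_66_P118213) had normalized signals of -1.01, -1.28 and -1.46 in PGC-1αf/f and of -1.13, -0.98 and -0.84 in mPGC-1α microglia. The groups overlapped, since PGC-1αf/f replicate 1 was above mPGC-1α replicate 1. The difference was 0.27 (SE 0.17, 95% interval -0.12 to 0.66, adjusted p = 0.427), and it was 0.17 without PGC-1αf/f replicate 3 and 0.20 without mPGC-1α replicate 3. Within columns 1 and 2 it was -0.12 and 0.30. Its second probe (A_52_P494622) was well above background on 1 PGC-1αf/f and 2 mPGC-1α arrays and was not tested. Nr4a3 (NOR1) was represented by A_51_P128397 and A_66_P103105, each well above background on 0 arrays, with intensities between 25.7 and 54.0. These signals give no measure of a difference.

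The IER genes ranged from the highest to the lowest estimate. Ier2, a small nuclear regulator of transcription (A_51_P481325), had normalized signals of 1.13, 1.26 and 1.68 in PGC-1αf/f and of 3.06, 3.04 and 2.44 in mPGC-1α microglia. All mPGC-1α arrays were above all PGC-1αf/f arrays, with replicate 3 of each group nearest to the other group. The means were 1.36 ± 0.29 and 2.85 ± 0.35 (SD, n = 3 each), a difference of 1.49 (SE 0.23, 95% interval 0.95 to 2.03) or 2.81-fold (limma adjusted p = 0.0897). Within columns 1 and 2 it was 1.93 and 1.77. It was 1.65 without PGC-1αf/f replicate 3 (adjusted p = 0.0656) and 1.69 without mPGC-1α replicate 3 (adjusted p = 0.193). Its intensities did not overlap before scaling either, with 6860 as the highest PGC-1αf/f value and 7988 as the lowest mPGC-1α value.

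Ier3 (IEX-1), a stress-induced regulator of survival and a target of NF-κB, had the highest estimate. Ier3 (A_51_P286488) had normalized signals of -2.06, -1.67 and -2.31 in PGC-1αf/f and of -0.25, -0.74 and -0.13 in mPGC-1α microglia. The groups were apart by 0.93 between PGC-1αf/f replicate 2 and mPGC-1α replicate 2, the nearest pair. The means were -2.01 ± 0.32 and -0.37 ± 0.32 (SD, n = 3 each), a difference of 1.64 (SE 0.23, 95% interval 1.09 to 2.19) or 3.12-fold (limma adjusted p = 0.0725). Within columns 1 and 2 it was 1.81 and 0.93. It was 1.49 without PGC-1αf/f replicate 3 (adjusted p = 0.0803) and 1.52 without mPGC-1α replicate 3 (adjusted p = 0.233).

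Ier5, a regulator of the heat shock factor HSF1, was close to level. Ier5 (A_51_P456941) had normalized signals of 3.25, 3.23 and 3.35 in PGC-1αf/f and of 3.17, 3.44 and 3.53 in mPGC-1α microglia, where the value of 3.44 came from an outlier spot. The groups overlapped, with mPGC-1α replicate 1 the lowest array and mPGC-1α replicate 3 the highest. The difference was 0.07 (SE 0.17, 95% interval -0.35 to 0.50, n = 3 and 2, adjusted p = 0.848) and 0.10 with the spot kept. Its sign was negative under 4 other scalings of the arrays (-0.05 to -0.21), without mPGC-1α replicate 3 it was -0.11, and without PGC-1αf/f replicate 3 it was 0.11. Within columns 1 and 2 it was -0.08 and 0.21.

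Zfp36 (A_55_P2797255) had normalized signals of 3.10, 3.17 and 2.99 in PGC-1αf/f and of 3.38, 3.41 and 3.64 in mPGC-1α microglia. All mPGC-1α arrays were above all PGC-1αf/f arrays, by a small margin. The spots of mPGC-1α replicates 1 and 2 were outliers, so the fit without them rested on replicate 3 of mPGC-1α alone, whose spread was assumed to be that of the other arrays. It gave 0.55 (SE 0.20, 95% interval 0.03 to 1.08, limma adjusted p = 0.285), with 0.51 when PGC-1αf/f replicate 3 was left out and no value without mPGC-1α replicate 3. With all spots the difference was 0.39 (SE 0.14, adjusted p = 0.246), and within columns 1 and 2 it was 0.28 and 0.24.

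**Figure D2:**
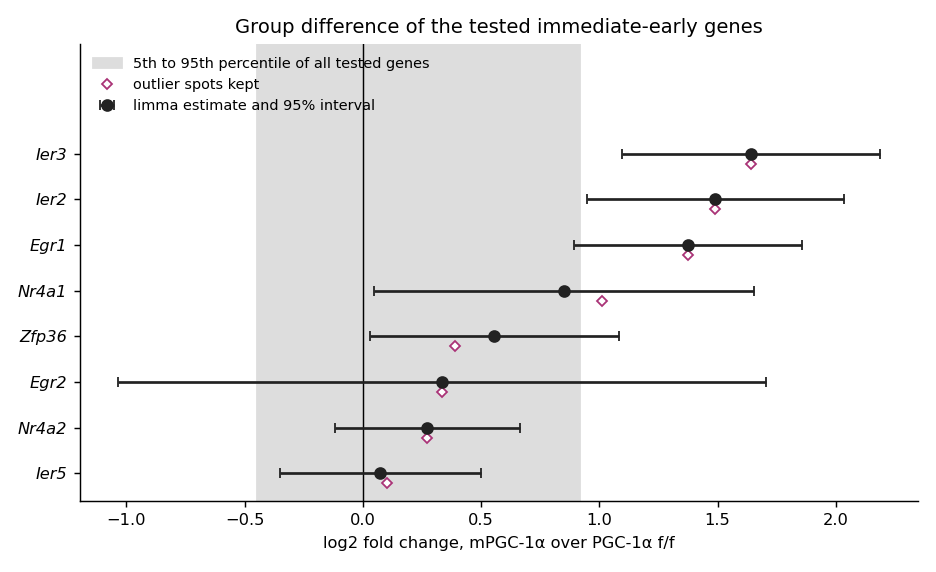
Log2 fold change (mPGC-1α over PGC-1αf/f) of the 8 tested members with 95% limma intervals, diamonds for the fit with outlier spots kept, and a grey band from the 5th to the 95th percentile of all tested genes (-0.45 to 0.92). The estimates of Ier3, Ier2 and Egr1 lie to the right of the band, and the intervals of Egr2, Nr4a2 and Ier5 cross 0.

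In order of the estimates, Ier3, Ier2 and Egr1 stood between 1.37 and 1.64, and their intervals overlapped one another widely. Nr4a1 and Zfp36 followed, then Egr2, Nr4a2 and Ier5 between 0.07 and 0.33. All 3 leading members exceeded the 95th percentile of 0.92 over all tested genes. A log2 fold change of at least 1 was reached by 488 of 12302 genes (3.97%).

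**Figure D3:**
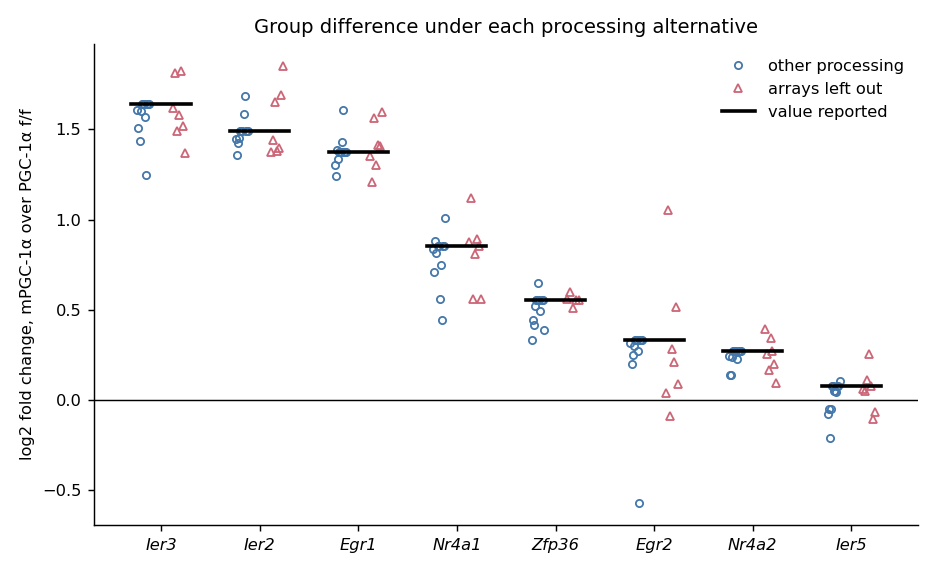
Log2 fold change (mPGC-1α over PGC-1αf/f) of each tested member under other ways of processing the arrays (circles) and with arrays left out (triangles), with the reported value as a bar. Ier3, Ier2 and Egr1 stay between 1.21 and 1.85 under every setting run, while Egr2 and Ier5 fall on both sides of 0.

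Whether genes of other cell types moved beside the members was read from marker lists. The leukocyte markers had a median log2 fold change of 1.18, with 16 of 18 tested genes higher, 0 past the threshold by limma (0 also at an unadjusted p under 0.05) and 3 not overlapping (16.7%, against 12.2% of all genes). The leukocyte median was 0.35 without PGC-1αf/f replicate 3, with 3 of 18 higher and not overlapping (15.6% of all genes in the same setting). It was 1.72 without PGC-1αf/f replicate 2, with 15 of 18 (16.9% of all genes), and 1.27 without mPGC-1α replicate 1, with 9 of 18 (17.3% of all genes). Summed signals of border macrophage markers were 20.6 to 22.1 in PGC-1αf/f and 20.5 to 31.8 in mPGC-1α microglia, those of endothelial and mural markers 8.49 to 11.9 and 11.48 to 13.75, and those of oligodendrocyte markers 16.2 to 19.7 and 10.6 to 13.7. Those of microglial markers were 291.9 to 351.6 and 269.9 to 313.9. Of 9 tested oligodendrocyte markers, 8 had estimates below 0, 1 above and 0 passed the threshold by limma. In 5 all mPGC-1α arrays were below all PGC-1αf/f arrays (background 10.8%), and in 1 above. At an unadjusted limma p under 0.05, 4 were lower and 1 higher (9.21% and 7.53% of probes). The 5 became 4 of 8 among markers well above background on all arrays (1275 of 11569 genes). In the deposited table without normalization the count was 1 (85 of 12302 genes). The part of these cell types in the members' signal was not tested.

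Other immediate-early genes were then counted, to set the members beside the rest of the same response. This list held 48 genes, from AP-1 subunits to feedback phosphatases, of which 46 were tested and 39 had values on all arrays. Of the 39, 34 had estimates above 0 and 5 below, with a median of 0.45. All mPGC-1α arrays exceeded all PGC-1αf/f arrays for 19 of 39 genes, where the background was 12.2% of genes, and the reverse held for 0. The count was 11 of 39 in the deposited table without normalization (background 9%), 15 of 39 with a median shift (7.19%) and 16 of 36 among genes well above background on all arrays (11%). Of the 46 genes, 2 passed the threshold, Fosb and Dusp1, both upward, where 0.0713% of all tested probes passed upward. Fosb, an AP-1 subunit, rose by 3.48 (SE 0.29, limma adjusted p = 0.0168), from -2.01, -2.33 and -1.45 to 1.06, 1.81 and 1.77. Dusp1, a phosphatase that inactivates MAP kinases, rose by 2.24 (SE 0.16, adjusted p = 0.0121), from 0.60, 0.89 and 0.82 to 2.80, 3.02 and 3.20.

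These 2 calls were lost when PGC-1αf/f replicate 2, mPGC-1α replicate 2, mPGC-1α replicate 3 or replicate 3 of both groups was left out. They were also lost with a block for the replicate number. Without PGC-1αf/f replicate 1 the lists of non-members together held 1 gene past the threshold. Gadd45b, a stress-inducible growth arrest gene, was the other of the 3 highest non-overlapping genes, at 2.30 (SE 0.64, adjusted p = 0.193). At the low end of the non-overlapping genes were Ppp1r15a, which restores translation after stress, at 0.51 (SE 0.13, adjusted p = 0.164), and the AP-1 subunits Fosl2 at 0.45 (SE 0.23, adjusted p = 0.358) and Jun at 0.36 (SE 0.15, adjusted p = 0.299). Under a median shift of the arrays, which moved the median of all genes to -0.10, 2 of 39 genes of the list were non-overlapping in the lower direction, as were 1990 of all 12302 genes.

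**Figure D4:**
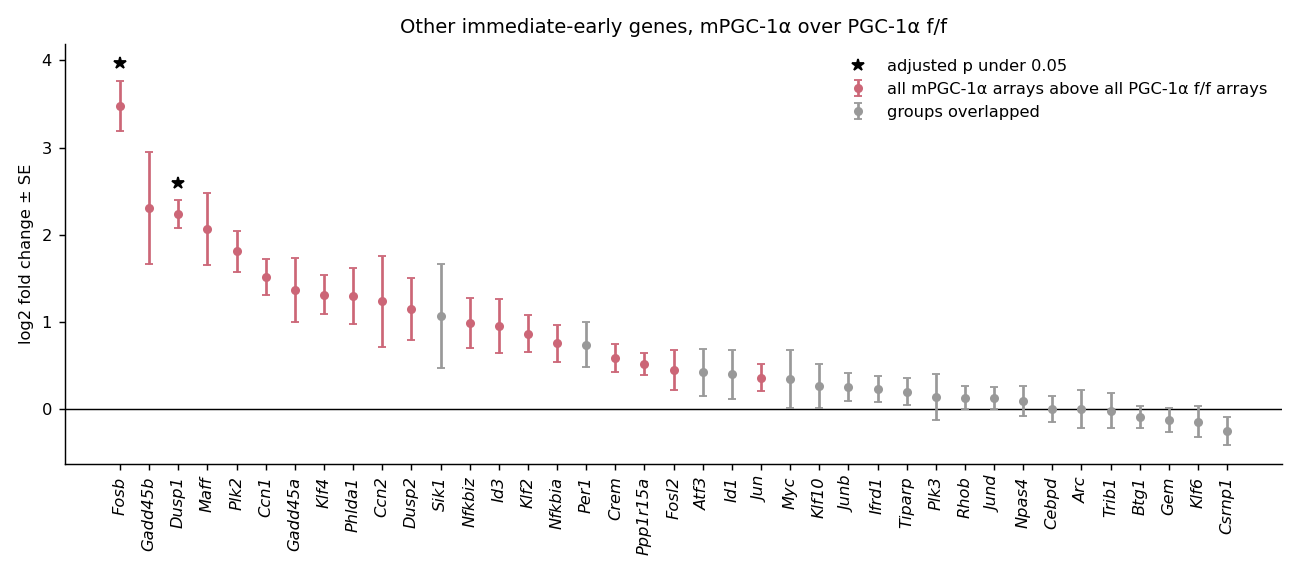
Log2 fold change (mPGC-1α over PGC-1αf/f) with SE of the 39 other immediate-early genes measured on all arrays, coloured where the groups did not overlap, with stars for adjusted p under 0.05. Most of the 19 non-overlapping genes lie at the left, with 2 stars at Fosb and Dusp1. Maff and Ccn1 were not well above background on any PGC-1αf/f array, so their folds are bounds, at least 2.38-fold and 1.74-fold.

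Transcription factors and kinases upstream of these genes, together with EGR corepressors, were counted in the same way. The upstream list held 22 genes, among them SRF and its coactivators, ternary complex factors, CREB and its coactivator, MEF2 factors, ERK pathway kinases and the EGR corepressors Nab1 and Nab2. Of 20 tested, 7 had estimates above 0 and 13 below, with a median of -0.06, and 0 passed the threshold by limma. At an unadjusted p under 0.05, 1 was lower and 0 higher (9.21% and 7.53% of all probes). In 3 genes all mPGC-1α arrays were below all PGC-1αf/f arrays, against a background of 10.8%. This held for 0 in the deposited table without normalization (85 of 12302 genes) and for 1 with the mean over a gene's probes (1362 of 12318). It held for 6 without PGC-1αf/f replicate 1 (2224 of 12429 genes), for 5 without mPGC-1α replicate 2 (1785 of 12410) and for 7 without mPGC-1α replicate 3 (2107 of 12368). The 3 genes were the transcription factor Mef2c at -0.47 (SE 0.19, adjusted p = 0.284), the CREB coactivator Crtc2 at -0.26 (SE 0.12, adjusted p = 0.324) and Mef2d at -0.16 (SE 0.12, adjusted p = 0.511). The SRF transcript itself differed by 0.06 (SE 0.13, adjusted p = 0.836) and Creb1 by -0.05 (SE 0.15, adjusted p = 0.888), both named after their values were seen. These are transcript levels and do not measure the activity of the factors.

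Close relatives of the members were read from a list of 4 genes. Ier5l differed by 0.16 (SE 0.21), Zfp36l1 by -0.08 (SE 0.14) and Zfp36l2 by -0.19 (SE 0.16), each with overlapping groups, and Egr4 was not tested. Of 11 mRNAs known to carry AU-rich elements that ZFP36 binds, 5 were tested, 4 had estimates above 0 and 0 passed the threshold by limma (3 had an unadjusted p under 0.05, among them Cxcl2, which met the background limit in full on the mPGC-1α arrays alone). In 3 of the 5 all mPGC-1α arrays were above all PGC-1αf/f arrays (background 12.2%). This held for 1 in the deposited table without normalization (9%) and for 2 of 4 among targets well above background on all arrays (11%). Tnf, a cytokine, differed by 1.03 (SE 0.35, adjusted p = 0.244) and the chemokine Ccl3 by 0.72 (SE 0.21, adjusted p = 0.201), each with all mPGC-1α arrays higher. Vegfa differed by 0.30 (SE 0.23, adjusted p = 0.517) and Il6 by -0.23 (SE 0.38, adjusted p = 0.776), each with overlapping groups. The neutrophil chemokine Cxcl2 differed by 3.71 (SE 0.91, adjusted p = 0.163). It was well above background on 1 PGC-1αf/f array and 3 mPGC-1α arrays, so the size of this difference is uncertain.

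The mean standardized profile of the 5 members with values on all arrays stood at -0.68, -0.40 and -0.96 in PGC-1αf/f and at 0.69, 0.68 and 0.67 in mPGC-1α microglia. This mean does not stand for every member. Egr1, Ier2 and Ier3 correlated with one another at 0.835 to 0.959, and Nr4a2 with these at 0.405 to 0.679. Egr2 correlated at -0.022 with Egr1, 0.189 with Ier2, 0.058 with Nr4a2 and 0.363 with Ier3. Outside the members, the genes with the most similar profile over the 6 arrays were Usp18 and Map3k20 (Pearson r 0.995 each), Trim30b (0.993), Mthfs (0.990) and Coa7 (0.989). Since the arrays fall into 2 groups, genes that differ between the groups rank high here, and the ranking is a description. The estimates of these genes ran from 0.27 for Mthfs to 1.16 for Map3k20, none past the threshold.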

How the data were processed

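Gene expression of P2RY12-selected microglia was measured with 1-colour Agilent arrays (Cy5), 3 per group, grouped by the labels. The authors deposited scanner files with intensity per spot from Feature Extraction 11.5.1.1, after background subtraction within the array and with no normalization between arrays. Their methods name GeneSpring and no test per gene. A deposited table held the same intensity values (largest difference 0.497%).

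Control spots and outlier spots were left out. Log2 intensity was reduced by the 75th percentile over 59305 spots, and spots of a probe were averaged. A probe met the background limit on an array if at least 0.5 of its spots did. Those that met this on every array of 1 group or of both were kept, 25333 of 56605, and 25257 had a p-value. Probe accessions were matched to RefSeq gene names (GRCm38.p6), giving 33767 probes with 1 symbol. A gene was represented by its brightest probe with values on all 6 arrays. The array design's own build differs, so gene coordinates are not given, and the promoter windows are RefSeq's. limma 3.58.1 in R 4.3.3 with the package data.table, version 1.17.8, (lmFit, eBayes, two-sided, Benjamini-Hochberg) was tested on simulated data. Motifs and figures used Python 3.11.15, pandas 2.3.3, numpy 2.4.6 and matplotlib 3.10.9. For a dim group, the bound set the brighter mean against the lowest signal well above background per array, or the probe's own if higher.

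Every member probe was named. In the lists of other immediate-early genes, upstream factors, relatives and ZFP36 targets, genes past the threshold were named, with the 3 highest and 3 lowest of the non-overlapping genes well above background on all arrays, and the 5 genes most like the members. The relatives, Srf, Creb1, Maff, Ccn1, Cxcl2, Vegfa and Il6 fall outside this rule and were named after their values were seen. Members and lists were chosen with earlier results of these data known. Further marker lists gave medians of -0.04 for microglia, 0.29 for border macrophages, 0.78 for endothelial and mural cells, 0.18 for neurons, 0.07 for astrocytes, -0.55 for oligodendrocytes, 0.12 for erythroid cells and -1.95 for Y-linked genes. With each array left out in turn these medians ranged, in the same order, from -0.13 to 0.05, -0.03 to 0.47, 0.06 to 1.28, -0.04 to 0.34, -0.10 to 0.25, -0.74 to -0.36, -0.81 to 0.62 and -2.85 to -0.41. The ends came without PGC-1αf/f replicate 3 for the lowest values of endothelial and mural cells, neurons and erythroid cells, and without mPGC-1α replicate 3 for the lowest of border macrophages and the highest of Y-linked genes. Alternatives changed the normalization, background correction (normexp, offset 50), filter, variance prior, probe summary, array weights, replicate or slide column block, and the arrays included. Keeping outlier spots and leaving out replicate 3 of both groups were chosen after seeing the data. The number of arrays limits the precision.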

Additional observations from a re-analysis of the deposited data

How the results depend on the processing

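Egr1, Ier2, Ier3, Nr4a1 and Nr4a2 kept their direction under all 19 alternatives run, and Zfp36 under the 17 that gave it a value. With each array left out in turn, Egr1 ranged from 1.21 to 1.56, Ier2 from 1.38 to 1.69, Ier3 from 1.49 to 1.82, Nr4a1 from 0.56 to 1.12, Nr4a2 from 0.17 to 0.39, Zfp36 from 0.51 to 0.60 and Ppargc1a, which never passed, from 0.44 to 1.14. Ier5 turned to -0.0817 with quantile normalization, -0.0526 with a median shift, -0.21 with normexp and quantile normalization, -0.0536 in the deposited table without normalization, -0.107 without mPGC-1α replicate 3 and -0.0691 without replicate 3 of both groups, with a highest value of 0.256 without mPGC-1α replicate 1. Egr2 turned to -0.57 with array weights and -0.0889 without PGC-1αf/f replicate 3, and reached 1.05 without PGC-1αf/f replicate 2. The cause was not tested.

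Members past the threshold, 0 as reported, numbered 2 in the deposited table without normalization (Ier2, adjusted p = 0.0384, and Ier3, 0.0124), 3 with a random block for the slide column (Egr1, 0.0324, Ier2, 0.0373, and Ier3, 0.0432), 3 with array weights (0.00635, 0.00635 and 0.0221 in that order) and 0 to 1 with an array left out, the 1 being Egr1 without PGC-1αf/f replicate 3. Non-overlapping members numbered 5 of 8 with outlier spots kept and 3 to 4 with an array left out, where the share of all genes rose from 12.2% to between 15.6% and 24.8%. Genes of the other lists past the threshold, 2 as reported, numbered 7 in the deposited table, 4 with the column block, 13 with array weights, 0 without replicate 3 of both groups and 0 to 2 with an array left out.

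Of all probes, 20 passed as reported, 12 with quantile normalization, 11 with a median shift, 11 with normexp and quantile normalization together, 456 in the deposited table (413 higher, 43 lower), 9 without the filter, 4 with the filter on all 6 arrays, 140 with the column block (75 higher, 65 lower), 1280 with array weights (559 higher, 721 lower), 2 without replicate 3 of both groups and 1 to 24 with an array left out. With the mean over a gene's probes, 8 of 13100 genes passed. The replicate numbers did not pair the samples by the correlation of their deviations (0.139, 0.127 and 0.0187), and with the replicate block 0 probes, 0 members and 0 genes of the other lists passed. Dim signal limits Egr3 and Nr4a3.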
